A study of Mus musculus with 14 samples.

Results

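The youngest and the oldest glands of a series on mouse mammary development through puberty were compared: 3 arrays of glands taken at 3 weeks of age against 3 arrays of glands taken at 7 weeks, 6 of the 14 arrays in the series. Every array held RNA pooled from at least 3 untreated female mice of the outbred CD1 strain, extracted from the whole 4th inguinal mammary gland after its lymph nodes had been cut out. The other arrays came from glands of the same kind at 4 weeks (3 arrays), 5 weeks (2 arrays) and 6 weeks (3 arrays), and they entered the fit only to help estimate the spread between pools. The arrays are named below by age and letter, from 3wk A to 7wk C. Because each replicate is a pool, the error describes the spread between pools and not between single mice. The deposited value of a probe set is a linear ratio whose reference is the median of that same probe set in all 14 arrays; levels can therefore be compared between arrays but not between genes. Of 22690 probe sets on the arrays, 16898 named 1 gene and had enough signal to be tested, and they covered 10670 of the 12393 genes named on the arrays.

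At weaning the mammary gland is a fat pad with a small duct rudiment. During puberty, ovarian oestrogen and pituitary growth hormone make the ducts lengthen from terminal end buds, and progesterone adds side branches. The ducts have an inner luminal layer, which will make milk, and an outer basal layer of contractile myoepithelial cells. The fat around them is mainly white, and in young mice it also holds brown-like fat cells, which are rich in mitochondria and burn fatty acids for heat. A whole gland mixes all of these cells, so fewer cells of a type and less RNA per cell cannot be told apart in any value below.

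Markers of the main tissues were present, and those of some tissues moved between the ages. Of 12 tested luminal epithelial markers, 10 were called higher at 7 weeks, and their mean log2 ratio was -2.30, -1.39 and -1.42 on the arrays at 3 weeks and 0.43, 0.34 and 0.13 at 7 weeks. Basal markers were called higher at 4 of 9, and brown adipocyte markers lower at 4 of 6. The 7 tested white adipocyte markers gave 2 lower calls and a median log2 difference of -0.35. With no overlap 5 of them were lower, as were 9.93% of all genes, and 1 was higher. None of the 8 endothelial and 8 macrophage markers was called. With no overlap between the ages 4 of the macrophage markers were higher at 7 weeks, as were 20.0% of all genes. The 4 tested T cell markers gave no call and were uneven between pools. Their mean log2 ratio was -0.81, 1.32 and 1.87 at 3 weeks and 0.02, 1.88 and 0.97 at 7 weeks. The 5 tested skeletal muscle markers, also without a call, were at 0.87, -0.29 and -0.67 against -0.19, -0.20 and -0.36. The part of these cells in the gene results was not tested. The spiked hybridisation controls moved as well: their mean log2 ratio was -0.233, 0.136 and 0.557 at 3 weeks and -1.865, -0.789 and -0.971 at 7 weeks, with no overlap. The 5′ to 3′ balance of control transcripts moved in part: the log2 difference of 5′ minus 3′ probe sets was 0.066, -0.658 and 0.325 at 3 weeks and 0.763, 0.904 and 0.786 at 7 weeks for pyruvate carboxylase, and 0.084, -0.011 and 0.027 against 0.114, 0.164 and 0.142 for Gapdh, both with no overlap. For actin it was 0.182, 0.094 and -0.059 against 0.159, 0.140 and 0.041, with overlap. For the transferrin receptor it was -0.643, -0.574 and -0.855 against -1.037, 1.381 and 0.918, also with overlap. The part of the hybridisation controls in the gene results was not tested beyond a fit that holds their level as a covariate. The part of the pyruvate carboxylase, Gapdh and transferrin receptor balance was not tested. The covariate counts stand beside the main ones of most lists with calls.

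Between 3 and 7 weeks 1080 of the 10670 genes differed (10.1%), by limma on log2 ratios with Benjamini-Hochberg adjusted p under 0.05, which is what "called" means throughout. Of these, 761 genes (7.13%) were higher at 7 weeks and 319 (2.99%) were lower. At probe set level 1580 of 18479 (8.55%) were called. In 3191 genes (29.9%) the 3 arrays of one age lay entirely above the 3 of the other, 2131 of them (20.0%) higher at 7 weeks and 1060 (9.93%) lower. Counts in the gene lists below are to be set against these shares of all genes. The share of calls that were higher, 70.5%, was 63.2% when each array was centred on its median and 56.9% after quantile normalization. Calls were fewer without any 1 array: 750, 728 and 835 without 3wk A, B and C, and 645, 648 and 618 without 7wk A, B and C. With the hybridisation-control covariate 270 genes were called, 201 higher and 69 lower. Age groups differed more often by a little than by a lot. The absolute log2 difference was under 0.5 in 88 called genes, from 0.5 to 1 in 523, from 1 to 2 in 337 and over 2 in 132. Above 2, 116 genes were higher and 16 lower, whereas from 0.5 to 1 the 2 directions stood at 310 and 213. Over all genes tested, the median log2 difference was 0.09, and its median standard error was 0.21.

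**Figure D1:**
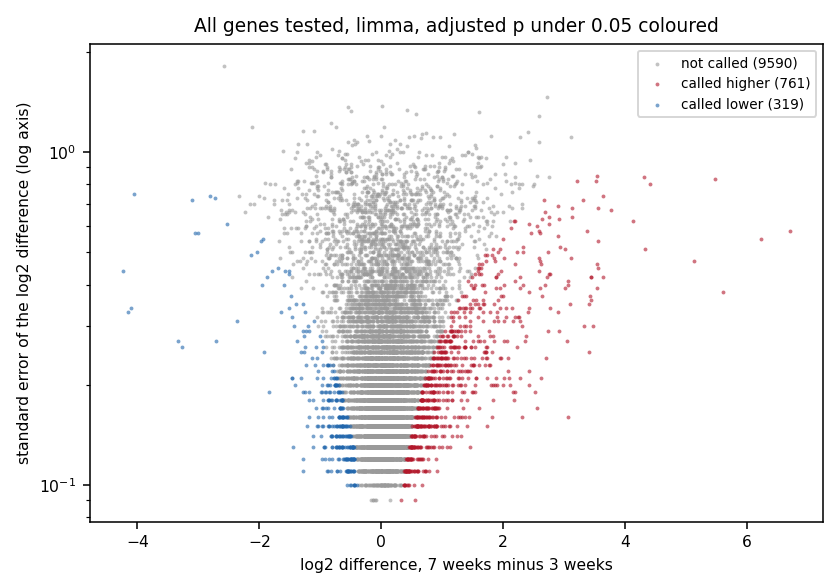
Log2 difference between 7 and 3 weeks (horizontal) against its standard error (vertical, log axis) for the 10670 genes tested; the 761 genes called higher and the 319 called lower are coloured. The largest differences are on the right, and most of the calls have an absolute difference under 2.

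Among the called genes with an absolute log2 difference from 0.5 to 2, no overlap and the same sign at every probe set, 574 were higher and 268 lower. The 10 with the smallest adjusted p in each direction fell into a few recognisable kinds. All 20 were also called without any 1 array, with the hybridisation-control covariate, and with only the 6 arrays in the fit. Their choice by smallest adjusted p favours this. Pi16 was not called when probe sets of low level were not left out. The lower ones all serve mitochondria or their fuels, apart from Ppa1, a cytosolic enzyme that splits pyrophosphate. Acaa2, the last enzyme of mitochondrial fatty acid breakdown, measured 2.03, 2.29 and 2.10 times its median at 3 weeks and 0.818, 0.872 and 0.938 at 7 weeks, a log2 difference of -1.29 (SE 0.11, adjusted p = 7.6e-05). Acadvl, which begins the breakdown of very long chains, measured 1.76, 1.96 and 1.76 against 0.783, 0.717 and 0.746. In both genes all 7-week arrays were below all 3-week arrays, which the choice of genes required. Coq8a, a kinase-like protein needed to make coenzyme Q, had the largest difference of the lower set, -1.84 (SE 0.19), with 2.78, 3.23 and 2.81 at 3 weeks and 0.834, 0.747 and 0.880 at 7 weeks. The others were Eci1 (-1.21), an isomerase for unsaturated fatty acids, Acat1 (-0.89), a ketone body and isoleucine enzyme, Cyc1 (-1.12), Uqcrc2 (-0.98) and Uqcrfs1 (-0.87), subunits of respiratory complex III, Fmc1 (-1.12), an assembly factor of ATP synthase, and Ppa1 (-1.45).

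The 10 higher ones were mostly genes of epithelium. Mfge8, a protein of the milk fat globule that helps clear dying cells, measured 0.310, 0.386 and 0.338 at 3 weeks and 1.40, 1.22 and 1.05 at 7 weeks (log2 difference 1.82, SE 0.16, adjusted p = 7.21e-05). Dsp, the desmosome's link to keratin filaments, was at 0.307, 0.412 and 0.390 and then at 1.43, 1.14 and 1.40. Scnn1a, a subunit of the epithelial sodium channel, differed by 1.40 (SE 0.15), Cldn10, a tight junction protein, by 1.61 (SE 0.17), and Sdc1, a heparan sulphate proteoglycan of epithelial surfaces, by 1.89 (SE 0.20). The serine protease gene Prss23 (1.74), Pdzk1ip1 (1.83) and Bex3 (1.45) were higher as well, and so was the acyltransferase gene Mboat1, at 0.324, 0.509 and 0.405 against 1.78, 1.67 and 1.43. Pi16, one of the fibroblast markers, measured 0.443, 0.568 and 0.785 at 3 weeks and 1.79, 2.37 and 2.28 at 7 weeks (1.87, SE 0.20). It was the only higher call among the 8 fibroblast markers, of which Col1a2 (-0.48) was called lower (median of the 8 markers 0.20). The Pi16 means at 4, 5 and 6 weeks were 0.958, 1.02 and 1.07, below every 7-week array, while the mean of Mfge8 was 1.15 by 5 weeks.

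**Figure D2:**
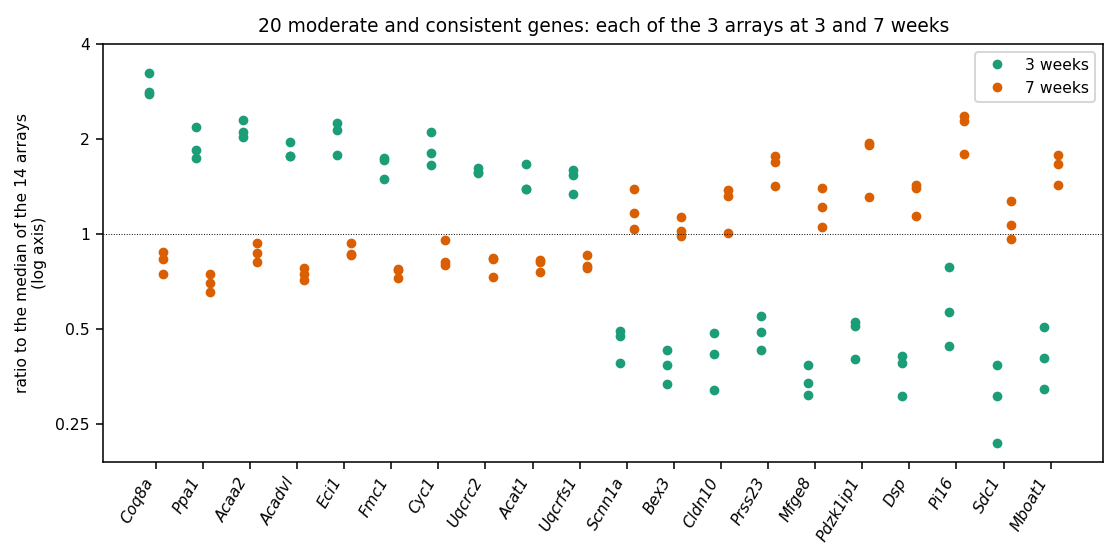
Ratio to the median of the 14 arrays (log axis) for the 20 genes with moderate, consistent differences, with the 3 arrays at 3 weeks and the 3 at 7 weeks as separate points. In every gene the ages are separated, which the choice of genes required, from Coq8a (log2 difference -1.84) on the left to Mboat1 on the right.

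Subunits of the respiratory chain were lower at 7 weeks as a family, by modest amounts. Of the 80 tested subunits of complexes I to V, 39 (48.8%) were called lower and none higher, where 2.99% of all genes were called lower; 78 of 80 had a difference below 0, and 59 were lower with no overlap. Their median log2 difference was -0.52. Without 3wk B the count was 20, without 3wk C 24, without 7wk A 22, and without 7wk B or 7wk C 19; it was 5 with the hybridisation-control covariate. Complex I takes electrons from NADH, and 19 of its 33 tested subunits were called lower (median -0.58), with Ndufs1, Ndufv2, Ndufc2 and Ndufs7 the largest. Ndufs1, the big iron-sulphur subunit, measured 1.28, 1.43 and 1.40 at 3 weeks and 0.761, 0.817 and 0.626 at 7 weeks (-0.91, SE 0.17, adjusted p = 0.00695). Ndufc2 was tighter still, at 1.38, 1.42 and 1.33 against 0.809, 0.813 and 0.865 (-0.73, SE 0.11). The complex I count was 11 without 3wk B, 12 without 7wk A, 10 without 7wk B and 9 without 7wk C, and 1 with the covariate. Ndufb1 was the only complex I subunit with a difference above 0, and that was 0.02.

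The other complexes differed in the same direction. In complex II, which links the citric acid cycle to the chain, Sdhb was at 1.31, 1.53 and 1.47 at 3 weeks and 0.760, 0.737 and 0.714 at 7 weeks (-0.96, SE 0.15). Its partners Sdhd (-0.68) and Sdha (-0.48) were called too, but Sdhd not without 3wk B, 3wk C, 7wk A or 7wk B (adjusted p up to 0.104) and Sdha not without 3wk A, B or C or 7wk B or C (up to 0.110), so the complex had 1 call in place of 3 without 3wk B, 3wk C or 7wk B. All 9 tested subunits of complex III were lower with no overlap, 5 of them called (median -0.71), and the count was 3 without 3wk B or any 1 of the 7-week arrays. Uqcrc2, a core subunit, measured 1.56, 1.62 and 1.57 at 3 weeks and 0.835, 0.839 and 0.730 at 7 weeks. Of 16 tested subunits of complex IV, which passes electrons to oxygen, 6 were called lower. The 2 largest were forms made in particular tissues: Cox7a1, of muscle and brown fat, measured 5.13, 6.95 and 5.53 against 0.724, 0.520 and 0.511 (-3.33, SE 0.27, adjusted p = 7.03e-05), and Cox8b measured 1.86, 3.09 and 2.94 against 0.817, 0.919 and 0.741 (-1.64, SE 0.33). The widely expressed subunits Cox6b1 (-0.72, SE 0.14) and Cox4i1 (-0.65, SE 0.13) differed far less. ATP synthase was the least decided of the 5 complexes: 6 of 18 tested genes were called lower (median -0.39), led by Atp5md (-1.20), Atp5d (-0.72), Atp5mpl (-0.66) and Atp5b (-0.53). The ATP synthase count was 1 without 3wk B or any 1 of the 7-week arrays and 2 without 3wk C, and none of those 4 was called with the covariate (adjusted p from limma 0.226, 0.504, 0.390 and 0.452). With the covariate no subunit of complex II or ATP synthase was called, 3 of complex III and 1 of complex IV. None of the 9 tested assembly factors of complex IV was called.

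Most calls among the pathways that feed the chain were lower too. Of 12 tested citric acid cycle enzymes 9 were called lower and none higher (median -0.63), with 6 to 8 calls when 1 array was left out and 3 with the hybridisation-control covariate. Idh3b, a subunit of the NAD-dependent isocitrate dehydrogenase, measured 1.52, 1.61 and 1.46 at 3 weeks and 0.841, 0.812 and 0.773 at 7 weeks (-0.92, SE 0.12, adjusted p = 0.000957). Suclg1 (-0.96), Sucla2 (-0.92) and Idh3a (-0.74) were close to it. In mitochondrial beta-oxidation, the stepwise shortening of fatty acids, 11 of 19 tested genes were called lower (median -0.57); 7 were called when 7wk B was left out and 5 with the covariate. Besides Acadvl, Acaa2 and Eci1, the 4 largest included Etfdh, which hands electrons from this pathway to coenzyme Q: 1.47, 1.76 and 1.38 at 3 weeks against 0.822, 0.749 and 0.675 (-1.03, SE 0.15). The exception, named after its value was seen, was Cpt1a, the carnitine transferase that admits fatty acids to mitochondria. It was higher at 7 weeks by 0.77 (SE 0.22, adjusted p = 0.0489), a call that was lost without any 1 of the 6 arrays (adjusted p 0.0535 to 0.157). The list of peroxisomal fatty acid oxidation moved less, with 2 of 18 called lower, Acot4 (-0.86) and Ech1 (-0.81), and Phyh (0.39) called higher. Without 3wk A or 7wk A only Ech1 of the lower genes was called, and Phyh was not called without any 1 array (adjusted p 0.0627 to 0.159). With the covariate 1 gene of this list was called lower and none higher. Of 7 genes of the pyruvate dehydrogenase complex and its kinases, which link glycolysis to the cycle, 1 was called lower, Pdk4 (-1.25), and not without 3wk A, B or C or 7wk B or C (adjusted p up to 0.114). Bdh1, an enzyme of ketone bodies, went the other way, at 0.0834, 0.178 and 0.389 against 1.34, 2.13 and 1.97 (3.31, SE 0.72), and was not called without 3wk A, 7wk B or 7wk C (up to 0.0544). None of 11 tested peroxins, which build peroxisomes, was called.

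Breakdown of the branched-chain amino acids, which fat tissue uses as fuel, had 8 of 18 tested genes called lower and none higher (median -0.44). The first enzyme, Bcat2, measured 2.39, 1.76 and 1.99 at 3 weeks and 1.06, 0.703 and 0.779 at 7 weeks (-1.28, SE 0.29), and Dbt, a core of the branched-chain dehydrogenase, 1.83, 1.71 and 1.48 against 1.05, 0.890 and 0.661. The count without 1 array was 4 without 3wk A, 3 without 3wk B, 5 without 3wk C, 3 without 7wk B and 2 without 7wk C. Bcat2 was not called without 3wk A, 7wk B or 7wk C (adjusted p up to 0.0712), nor Dbt without 3wk A, 3wk B or 7wk C (up to 0.0633). With the covariate 1 gene of this list was called. Aldh6a1 (-0.60, SE 0.12), of the valine branch, was called without each array in turn. Of 9 tested genes of coenzyme Q synthesis, Coq8a, Coq5 (-0.58) and Coq9 (-0.55) were called lower, 1 gene with the covariate.

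The protein-making machinery of mitochondria differed by less. Of 74 tested mitochondrial ribosomal proteins 11 were called lower (14.9%, against 2.99% of all genes) and none higher (median -0.26). With no overlap 27 were lower (36.5%, against 9.93%). Mrpl47 was at 1.45, 1.93 and 1.49 at 3 weeks and 0.849, 0.819 and 0.695 at 7 weeks (-1.03, SE 0.16), and Mrps36 (-0.78) and Mrps35 (-0.69) were also called without each array in turn. The count was 6 without 3wk C, 5 without 7wk A, 7 without 7wk B and 5 without 7wk C. It was 3 with the covariate, 17 with arrays centred on their medians and 16 after quantile normalization. Protein import had 5 of 26 called lower, of which Grpel1 (-0.73, SE 0.13), a nucleotide exchange factor of the import motor, was the largest; the count was 3 without 3wk A or 7wk A and 2 without 3wk B or 7wk B, and 1 with the covariate. Cytosolic ribosomal proteins gave no call in either direction among 48 tested (median -0.09; 3 were higher and 8 lower with no overlap), although 3 were called lower with arrays centred on their medians or after quantile normalization.

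Regulators of mitochondria and fat burning were lower as well, 4 of 15 tested with a call (3 with the covariate) and none higher. Ppara, the nuclear receptor that turns on fatty acid oxidation, measured 11.4, 5.66 and 6.77 at 3 weeks and 0.528, 0.411 and 0.357 at 7 weeks (-4.15, SE 0.33, adjusted p = 7.03e-05). The coactivator Ppargc1a measured 1.95, 1.65 and 1.69 against 0.888, 0.620 and 0.644 over 4 probe sets (-1.31, SE 0.21), and its relative Ppargc1b 2.02, 1.67 and 1.48 against 0.941, 0.665 and 0.691 (-1.18, SE 0.18). Their partner Esrra, an orphan receptor, differed by -0.63 (SE 0.16) and was not called without any 1 of 3wk A, B or C, 7wk B or 7wk C (adjusted p up to 0.0904). The general factors of nuclear and mitochondrial transcription were not called: Nrf1 -0.14, Gabpa -0.20, Tfam 0.21, Tfb2m -0.07. Of the 13 tested genes of the brown adipocyte list, which includes Ppara and Ppargc1a, 10 were called lower (median -1.43), 8 to 10 without 1 array and 5 with the hybridisation-control covariate. Fabp3, a fatty acid carrier of oxidative tissues, went from 12.5, 13.4 and 8.92 to 1.04, 0.539 and 0.514 (-4.11, SE 0.34), and Slc27a2, an acyl-CoA synthetase, by a log2 difference of -4.05 (SE 0.75). Ucp1, which lets mitochondria turn fuel into heat, was more scattered: 5.06, 3.10 and 2.05 at 3 weeks and 0.991, 0.371 and 0.167 at 7 weeks (-3.01, SE 0.57). Dio2 (-0.05) and Elovl3 (0.45) from the same list were not called.

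**Figure D3:**
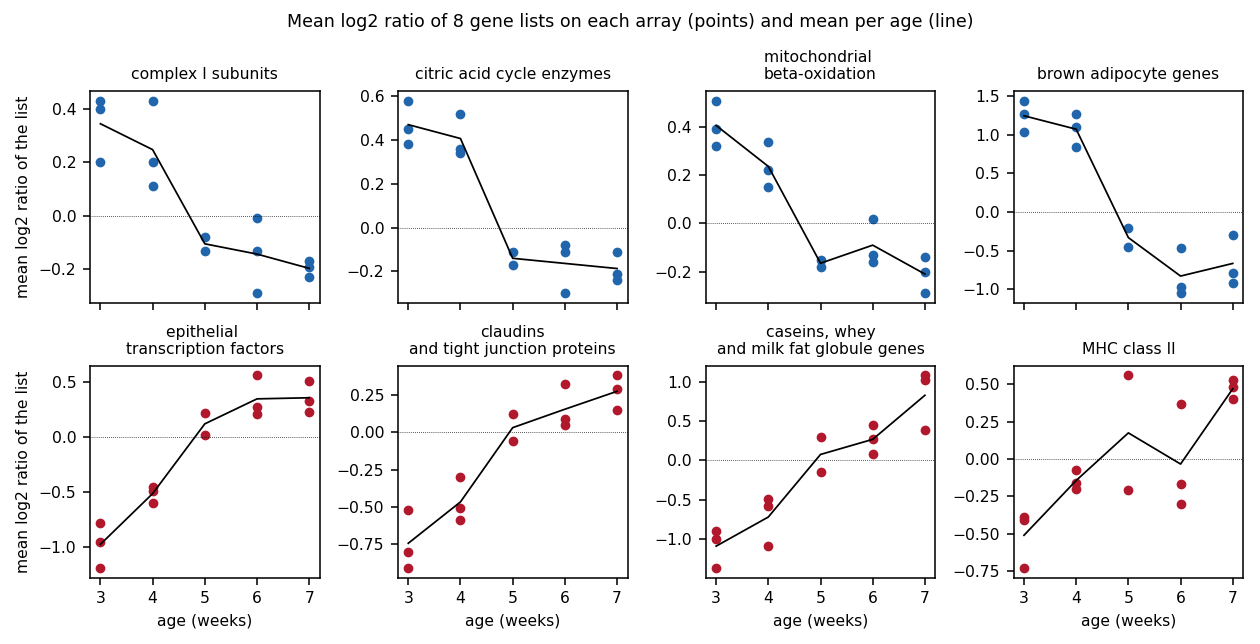
Mean log2 ratio over the tested members of 8 lists on each of the 14 arrays (points) against age in weeks, with the mean of each age as a line. The mitochondrial and brown adipocyte lists lie higher at 3 and 4 weeks than at 5, 6 and 7 weeks, and the epithelial, milk and MHC class II lists lie lower at 3 weeks than at 7.

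The arrays of the ages in between placed most of these mitochondrial differences between 4 and 5 weeks. The mean log2 ratio of complex I subunits was 0.20, 0.43 and 0.40 at 3 weeks, 0.11, 0.20 and 0.43 at 4 weeks, -0.13 and -0.08 at 5 weeks, and -0.23, -0.17 and -0.19 at 7 weeks. For the brown adipocyte list the 3 arrays at 4 weeks (0.84, 1.27 and 1.10) overlapped those at 3 weeks (1.44, 1.26 and 1.03), and every later array was below both. These values are a description over list members and were not tested. The 6 tested brown adipocyte markers were Ucp1, Cidea, Dio2, Elovl3, Cox8b and Cox7a1. Their mean log2 ratio was 1.26, 1.21 and 0.79 at 3 weeks and -0.04, -0.49 and -0.72 at 7 weeks. Cox7a1 and Cox8b are themselves complex IV subunits, so the markers are not separate from the respiratory chain lists. Dio2 and Elovl3 were not called. The part of brown fat cells in the respiratory chain values was not tested.

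Calls among fat storage genes were few and mostly lower. Among 20 tested adipocyte hormones and regulators, 4 were called lower: Nampt (-0.70), Fabp4 (-0.68), Cebpa (-0.51) and Adipoq (-0.43). Adipoq, the hormone adiponectin, was at 1.09, 1.19 and 1.14 at 3 weeks and 0.811, 0.907 and 0.824 at 7 weeks. Leptin (Lep) went the other way without being called, at 0.77 with no overlap. The 4 calls depended on single arrays: 2 genes were called without 3wk A, 3wk C or 7wk A, and 1 without 3wk B, 7wk B or 7wk C, with Fabp4 lost only without 7wk B (adjusted p 0.0628). Of the lipolysis and lipid droplet genes 3 of 15 (20.0%) were called lower, G0s2 (-1.26), Abhd5 (-0.74) and Lpl (-0.55). With no overlap 9 of this list were lower (60.0%) and 1 higher (6.67%). Abhd5, the coactivator of the main triglyceride lipase, was called without each array in turn, whereas 1 of the 3 was called without 3wk A or 7wk C. With the covariate 1 gene of each of these lists was called. Triglyceride synthesis gave 1 lower call, Gpam (-0.54), and 1 higher, Mogat1 (0.86), among 14, named after their values were seen. Each was 7.14% of the list, where 2.99% of all genes were called lower and 7.13% higher. Gpam was not called without 3wk A, 3wk C or any 1 of the 7-week arrays, nor Mogat1 without 3wk A, 3wk B or 7wk B.

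Fatty acid synthesis leaned upward between the end ages, but not steadily. The mean log2 ratio of the list was -0.32, -0.38 and -0.32 at 3 weeks and 0.23, 0.17 and 0.34 at 4 weeks. It was -0.16 and -0.01 at 5 weeks, -0.36, -0.13 and -0.35 at 6 weeks, and 0.16, 0.03 and 0.18 at 7 weeks. None of 20 tested genes was lower with a call, 3 were called higher and 12 were higher with no overlap (60.0%, against 20.0% of all genes), and the median was 0.41. With the covariate 1 was called. Elovl6, which lengthens palmitate, measured 0.303, 0.272 and 0.258 at 3 weeks and 1.31, 0.946 and 1.36 at 7 weeks (2.10, SE 0.21, adjusted p = 0.000186). Scd2, a desaturase, was at 0.787, 0.755 and 0.898 against 1.30, 1.34 and 1.47 (0.76, SE 0.12). Elovl5 was called at 0.57 but not without 3wk A, 3wk C, 7wk A or 7wk C (adjusted p up to 0.119). Fasn, the synthase itself, was at -0.14, and Acaca, which commits carbon to fatty acids, at 0.82 with no overlap and no call. Glycolysis was divided: 6 of 18 genes were called higher and 2 lower (Ldhb -0.54 and Pgk1 -0.45, named after their values were seen). The brain-type aldolase Aldoc measured 0.299, 0.287 and 0.329 at 3 weeks and 1.71, 1.13 and 0.872 at 7 weeks (1.96, SE 0.24), and the hexokinase Hk1 0.526, 0.615 and 0.660 against 1.46, 1.05 and 1.33 (1.09, SE 0.20). Pfkfb2 (1.18) and Pfkp (0.68) followed. Of the glycolysis genes higher at 7 weeks 3 were called without 3wk A, 7wk B or 7wk C, 3 with the covariate, and neither Ldhb nor Pgk1 with it or without 3wk A, 3wk B or any 1 of the 7-week arrays. The muscle forms Pfkm (-0.36) and Eno3 (-0.17) and the common forms Aldoa (-0.15) and Tpi1 (-0.07) were not called.

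Transcription factors of mammary epithelium were the list with the highest share of calls among those with more than 20 tested members. The lists and their members were chosen with earlier results of these data known, so this rank only describes the lists. Of 28 tested, 18 (64.3%) were called higher at 7 weeks, where 7.13% of all genes were, and 23 were higher with no overlap (median 1.06). The count was 11 without 7wk A and 6 with the hybridisation-control covariate. Sox9, a factor of duct progenitors, measured 0.169, 0.160 and 0.312 at 3 weeks and 1.99, 1.39 and 1.64 at 7 weeks (3.02, SE 0.39). Elf5, which directs the milk-making lineage, measured 0.230, 0.345 and 0.223 against 1.93, 2.57 and 1.51 (2.91, SE 0.29, adjusted p = 0.000177). Gata3, needed by luminal cells, measured 0.0825, 0.305 and 0.235 against 1.59, 1.20 and 0.948 (2.75, SE 0.43), and Myb 0.191, 0.523 and 0.362 against 2.11, 1.80 and 1.46 (2.42, SE 0.34). The luminal markers had a median log2 difference of 2.13. Elf5 is one of them, and so are Cdh1, Cldn3, Cldn7 and the luminal keratins of the lists below. The markers are therefore not separate from these lists, and the part of epithelial content was not tested. In Sox9, Elf5, Gata3 and Myb the lowest 7-week array was above the highest 3-week array. The oestrogen receptor Esr1 (0.32) was not called, and the progesterone receptor Pgr (1.02) was higher with no overlap and not called. Of 20 tested genes known to respond to these hormones 8 were called higher and none lower, 6 to 8 without 1 array and 5 with the covariate. Stc2, a secreted glycoprotein, had the smallest adjusted p, with 0.191, 0.269 and 0.214 at 3 weeks and 1.48, 1.13 and 1.35 at 7 weeks (2.56, SE 0.17, adjusted p = 3.95e-05). Wnt4, through which progesterone acts on neighbouring cells, measured 0.109, 0.397 and 0.133 against 1.63, 1.30 and 1.78 (3.12, SE 0.68), and it was not called without 3wk A or 7wk C (adjusted p 0.0558 and 0.0526).

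Many genes of epithelial junctions were higher. Of 27 tested claudins and tight junction genes 14 were called higher and 1 lower (median 0.94), 9 to 12 higher without 1 array with the fewest without 7wk A, and 8 with the hybridisation-control covariate. Cldn8 was at 0.0526, 0.115 and 0.244 at 3 weeks and 1.69, 2.10 and 2.17 at 7 weeks (4.12, SE 0.62), Cldn7 at 0.266, 0.382 and 0.344 against 1.39, 1.43 and 1.40 (2.11, SE 0.20). Cldn3 and Lsr, which seals corners between 3 cells, both differed by 2.58. Cldn5, the claudin of blood vessels, was at -0.19 and not called, and Marveld1 (-0.94, SE 0.13) was the gene called lower. Desmosome genes were called higher at 5 of 11, led by Dsc2 (1.99, SE 0.37) and Dsp; Pkp3 (1.36) and Pkp2 (1.04) were among them, and the count was 3 without 3wk A, 3wk B, 7wk A or 7wk B 2 without 7wk C, and 2 with the covariate. Of 20 cadherins and nectins 4 were called higher and none lower, with 10 members above 0 and 10 below (median 0.02), 2 calls without 3wk B, 7wk A or 7wk C, and 1 with the covariate. E-cadherin (Cdh1), the main adhesion protein of epithelia, measured 0.175, 0.243 and 0.302 against 1.65, 1.04 and 1.16 (2.43, SE 0.22, adjusted p = 7.99e-05). Cdh5 (-0.31) of endothelium and Cdh2 (-0.40) were not called. Of 21 cell polarity genes 4 were called higher (median 0.21), 2 without 3wk C or any 1 of the 7-week arrays and none with the covariate.

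Membrane-bound serine proteases and their inhibitors were called higher at 8 of 16, at 8 without each array in turn, and at 6 with the hybridisation-control covariate (median 1.03). The protease St14 measured 0.282, 0.455 and 0.280 at 3 weeks and 1.49, 1.22 and 1.29 at 7 weeks (2.01, SE 0.21), and its activator partner Prss8 0.144, 0.0536 and 0.479 against 1.91, 1.80 and 1.78 (3.56, SE 0.68). The inhibitors of these proteases were higher beside them, Spint1 by 1.70 (SE 0.25) and Spint2 by 1.81 (SE 0.25). Hpn (3.56) and Wfdc2 (2.17) were the other large differences. The secreted plasminogen activator Plau (-0.11) and its receptor Plaur (0.11) were not called. Among 60 tested water channels, ion channels and carbonic anhydrases 13 were called higher and 4 lower. Aqp5, a water channel of glands, was at 0.0588, 0.187 and 0.168 and then at 1.68, 1.43 and 1.50 (3.64, SE 0.42), and Fxyd3 at 0.217, 0.272 and 0.273 and then at 1.40, 1.12 and 0.994 (2.20, SE 0.19). The vessel and red cell channel Aqp1 was at -0.06, and the fat cell channel Aqp7 at -0.37, both not called. Of the higher genes of this list 8 were called without 7wk C and 4 with the covariate, and of the lower ones 1 with the covariate and 2 without 3wk B or any 1 of the 7-week arrays.

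Milk genes gave some of the largest differences, in untreated pubertal females. Of 19 tested genes 12 were called higher and 1 lower (median 1.82), 10 to 12 higher without 1 array and 9 with the hybridisation-control covariate. Csn1s1 measured 0.0191, 0.102 and 0.0593 at 3 weeks and 7.68, 3.90 and 4.31 at 7 weeks (6.70, SE 0.58), and Csn2, beta-casein, 0.185, 0.136 and 0.213 against 14.6, 12.9 and 11.8 (6.22, SE 0.55, both adjusted p = 7.21e-05). Muc1, a mucin of the luminal surface, differed by 5.47 (SE 0.83). Csn1s2a differed by 5.12 (SE 0.47) as the mean of 3 probe sets that disagreed, from -0.29 to 8.22. Wap, the whey acidic protein, was not among them: it was at -0.32 and not called. Tfrc, the transferrin receptor, was the gene called lower (-1.47, SE 0.21), but not with the covariate (adjusted p 0.0617).

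The 250 bases before the start of the genes with the largest differences are shown because signal transducers of the prolactin pathway bind a short palindrome there in textbook accounts. RefSeq promoters (build GRCm38.p6) were searched on both strands for TTCNNNGAA, which reads the same on both, and matches are in capitals, 5′ to 3′. Csn2 lies on chromosome 5, minus strand, and its window spans chr5:87699426-87699675, with the match at position -93 from the start. Csn1s1 is on the plus strand at chr5:87665958-87666207, with the match at -100.
Csn2: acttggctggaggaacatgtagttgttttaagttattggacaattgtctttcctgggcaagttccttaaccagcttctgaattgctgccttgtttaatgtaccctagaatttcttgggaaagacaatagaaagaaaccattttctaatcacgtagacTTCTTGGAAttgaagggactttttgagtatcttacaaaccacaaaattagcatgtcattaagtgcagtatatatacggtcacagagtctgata
Csn1s1: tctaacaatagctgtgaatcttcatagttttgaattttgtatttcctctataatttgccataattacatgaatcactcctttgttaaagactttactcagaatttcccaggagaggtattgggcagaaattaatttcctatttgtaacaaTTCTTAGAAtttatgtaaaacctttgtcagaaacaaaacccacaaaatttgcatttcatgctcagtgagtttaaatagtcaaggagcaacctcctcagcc
Of the 14 milk list genes that matched a promoter, Csn2, Csn1s1 and Glycam1 held the letters, in 3 of 16 promoters (18.8%); 7.02% of all 32851 promoters of that length and 5.92% of those of tested genes did. Glycam1 was at -2.58 and was not called, so the letters were found in milk genes with and without a higher call. For the 93 respiratory chain, citric acid cycle and beta-oxidation genes that matched, 10 of 103 promoters (9.71%) held CGCATGCG, the core of the palindrome known for the factor NRF1, against 1.55% of all promoters and 2.74% of those of tested genes. Both strands of this core read alike, and it was searched after a longer form of the palindrome had been. The promoters belonged to 9 genes, among them Etfdh, Acadm and Ogdh, which were called lower, and 6 that were not called, Atp5g2 (-0.02) and Atp5k (-0.55) for example. The window of Etfdh, on the minus strand at chr3:79628768-79629017, is shown with the match in capitals, at position -127.
Etfdh: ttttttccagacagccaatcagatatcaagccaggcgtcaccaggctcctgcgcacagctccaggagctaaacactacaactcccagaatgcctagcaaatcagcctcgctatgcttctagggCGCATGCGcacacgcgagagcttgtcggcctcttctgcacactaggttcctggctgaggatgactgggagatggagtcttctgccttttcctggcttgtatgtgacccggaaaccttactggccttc
The letters TNAAGGTCA, known for receptors of the Esrra kind, were in 1 of the same 103 promoters (0.971%). They were in 1.14% of all promoters and 0.691% of those of tested genes. The gene, Atp5g3, was not among those of this set with either of the other patterns. A match is a description of letters and not a measured binding site.

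Calls among keratins were mostly higher. Of 30 tested, 5 were called higher (3 with the covariate), and the 4 largest were keratins of luminal cells: Krt7 measured 0.102, 0.332 and 0.394 at 3 weeks and 1.26, 0.949 and 1.06 at 7 weeks (2.19, SE 0.41), followed by Krt19 (2.15, SE 0.34), Krt18 (1.78, SE 0.23) and Krt8 (1.62, SE 0.34). Of the basal keratins Krt5 was at 0.57 and not called, and Krt14 was the remaining higher call (1.43) with probe sets from 0.09 to 2.13. Krt6a was called lower at -0.98, but not without 3wk A, B or C or without 7wk A or B (adjusted p up to 0.112). Among contractile genes of myoepithelium and smooth muscle 7 of 17 were called higher and none lower, and all 17 had a difference above 0 (median 0.61). Cnn1, calponin, measured 0.103, 0.184 and 0.181 against 0.991, 1.01 and 1.02 (2.74, SE 0.29), and Synpo2 0.761, 0.977 and 0.748 against 1.51, 1.45 and 1.61 (0.89, SE 0.16). The oxytocin receptor Oxtr was at 1.03 (SE 0.26) and Tpm1 at 0.96 (SE 0.20). Oxtr was not called without 3wk B, 3wk C or any 1 of the 7-week arrays (adjusted p up to 0.101), nor Tpm1 without 7wk A (0.0543), and the list count was 3 without 7wk A, 4 without 7wk C and 1 with the covariate.

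In the matrix, the calls among enzymes were mostly higher and those among fibrillar collagens mostly lower. Of 17 tested metalloproteinases and their inhibitors 5 were called higher and 1 lower (median 0.50). Mmp2, which cuts basement membrane collagen, measured 0.516, 0.636 and 0.529 at 3 weeks and 1.62, 1.45 and 1.27 at 7 weeks (1.37, SE 0.16, adjusted p = 0.000434), and Mmp3 0.699, 0.916 and 0.665 against 2.57, 1.59 and 2.19 (1.47, SE 0.24). Mmp14, the activator of Mmp2, was at 1.10 (SE 0.28), the inhibitor Reck at 1.21 (SE 0.26), and Timp4, an inhibitor abundant in fat, was called lower (-1.05, SE 0.21). Mmp14 was not called without 3wk A or any 1 of the 7-week arrays (adjusted p up to 0.0889) and Reck not without 7wk B (0.0516), where 3 of the list were called higher; 1 was with the covariate, and none lower. Fibrillar and associated collagens were called lower at 3 of 15 (20.0%, against 2.99% of all genes) and higher at 1 (6.67%, against 7.13%). Their median was -0.42. Col6a1 measured 1.13, 1.44 and 1.44 against 0.803, 0.795 and 0.686 (-0.81, SE 0.15), while Col1a1 (-0.44) and Col3a1 (-0.25) were lower with no overlap and not called. Of the other called collagens, Col5a3 (-0.84) and Col1a2 (-0.48) lost the call without 3wk B, 3wk C or any 1 of the 7-week arrays (adjusted p up to 0.0801 and 0.132), and Col16a1 (1.19) without 3wk A, 7wk A or 7wk B (up to 0.0547). No collagen of this list was called with the covariate.

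Elastic fibre and collagen-processing genes gave 6 higher calls among 31 (19.4%, against 7.13% of all genes) and 1 lower (3.23%, against 2.99%). With the covariate they gave 2 higher calls and none lower. Fbln7 measured 0.131, 0.272 and 0.506 at 3 weeks and 1.74, 1.60 and 1.50 at 7 weeks (2.62, SE 0.46), and the fibulin Efemp1 differed by 1.29 (SE 0.20). The 2 procollagen peptidase enhancers went opposite ways: Pcolce2 was higher by 1.27 (SE 0.21), and Pcolce was lower (-1.03, SE 0.22), a call lost without 7wk C (adjusted p 0.0505). Elastin (Eln) was at -0.43 and not called. Of 20 matricellular proteins, secreted modulators that are not structural, 5 were called higher and 1, Sparc (-0.49), lower. The higher ones included Thbs1 (1.19), Spock2 (0.98), Ccn1 (0.82) and Ccn5 (0.74), but with the covariate, or without 3wk B, none of the list was called higher, and without 3wk A or any 1 of the 7-week arrays 1 was. Sparc was not called without 3wk A, 3wk B, 7wk B or 7wk C (adjusted p up to 0.0654).

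Genes for signals between cells differed gene by gene. Of 29 tested Wnt ligands and receptors 6 were called higher (20.7%, against 7.13% of all genes) and none lower (median 0.43). With no overlap 13 were higher (44.8%, against 20.0%). The called count was 3 without 3wk A or 3wk C, 2 without 7wk C and 1 with the covariate. Besides Wnt4, the ligand Wnt7b measured 0.735, 0.606 and 0.512 at 3 weeks and 1.65, 1.86 and 1.57 at 7 weeks (1.47, SE 0.26) and was called without each array in turn. The Wnt amplifier Rspo1 was at 2.55 (SE 0.60) and Wnt5b at 1.50 (SE 0.39), with adjusted p up to 0.0791 and 0.114 without 1 array. Secreted inhibitors and targets of the pathway went both ways, with 4 of 17 called higher and 1 lower (median 0.11), and 1 and none with the covariate. The lower one, named after its value was seen, was the secreted inhibitor Notum (-0.79), which was not called without 3wk A, B or C or 7wk B or C (adjusted p up to 0.165). Wif1 measured 0.0399, 0.458 and 0.0269 against 1.67, 1.34 and 1.73 (4.31, SE 0.84), with 3wk B well above the other arrays at 3 weeks. Sfrp2 measured 0.594, 0.825 and 0.611 against 1.44, 1.32 and 1.55 (1.10, SE 0.23). Axin2, a common target of the pathway, was at 0.52 with no overlap and was not called. In the TGF-beta family 5 of 40 tested genes were called higher (12.5%, against 7.13% of all genes) and 2 lower (5.00%, against 2.99%), with a median of 0.10. The higher count was 2 without 3wk A, 3 without 7wk C and 3 with the covariate, and the lower count none with the covariate or without 3wk A, 3wk C, 7wk B or 7wk C and 1 without 3wk B or 7wk A. Tgfb3 measured 0.353, 0.215 and 0.406 against 1.76, 1.66 and 1.18 (2.27, SE 0.31) and the activin subunit Inhbb 0.325, 0.400 and 0.454 against 1.70, 1.09 and 1.20 (1.74, SE 0.21), while the partner subunit Inhba was at -1.32 with no overlap and no call. Igfbp5, which binds insulin-like growth factors, was higher by 1.33 (SE 0.19).

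Some genes that respond fast to stimuli were higher. Of 24 immediate early genes 5 were called higher and none lower (median 0.42), and 7 were higher with no overlap (29.2%, against 20.0% of all genes). The called count was 3 without 3wk B and 2 with the hybridisation-control covariate. Jun measured 0.543, 0.529 and 0.674 at 3 weeks and 1.12, 1.08 and 1.24 at 7 weeks (0.99, SE 0.14), and Fos 0.351, 0.567 and 0.636 against 1.40, 0.925 and 1.08 (1.15, SE 0.23). Maff differed by 2.93 (SE 0.52). Heat shock genes went both ways, with 4 of 33 called higher (12.1%, against 7.13% of all genes) and 3 lower (9.09%, against 2.99%). Their median was 0.09. The higher count was 2 without 7wk A and the lower 1 without 3wk B, 3wk C or any 1 of the 7-week arrays, and with the covariate they were 2 and none. The inducible gene Hspa1b measured 0.346, 0.225 and 0.201 against 1.85, 1.49 and 1.31 (2.62, SE 0.21, adjusted p = 7.03e-05), though its probe sets may not separate it from the near-identical Hspa1a, whereas the constant form Hspa8 was at 0.06 and not called. Dusp1 (-0.48) and Atf3 (0.57) from the first list were not called.

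Genes of antigen presentation by MHC class II were higher at 7 weeks in many cases. All 9 tested genes had a difference above 0, 7 were higher with no overlap and 5 were called higher (median 0.87), 4 or 5 without 1 array and 1 with the hybridisation-control covariate. Cd74, the invariant chain, measured 0.337, 0.761 and 0.625 at 3 weeks and 1.50, 1.53 and 1.62 at 7 weeks (1.51, SE 0.27), and H2-Ab1 0.471, 0.675 and 0.876 against 1.48, 1.65 and 1.76 (1.32, SE 0.21). H2-Eb1 (2.19, SE 0.32) and H2-Aa (1.17, SE 0.24) were the others of the 4 largest. The 7-week arrays lay close together, and the 3-week arrays were more spread. MHC class I gave 1 lower call and none higher among 14, the lower call absent with the covariate and without 3wk B, 3wk C, 7wk B or 7wk C. The mean log2 ratio of the macrophage markers was -0.60, -0.01 and 0.08 at 3 weeks and 0.12, 0.29 and 0.10 at 7 weeks, and their part in the class II values was not tested. Igha, the heavy chain of immunoglobulin A, measured 0.209, 0.125 and 0.184 against 1.79, 1.89 and 1.80 (3.43, SE 0.37), and Jchain, which joins its units, 0.359, 0.300 and 0.168 against 1.75, 1.38 and 2.10 (2.71, SE 0.42), while the B cell genes Cd79a (-0.13) and Cd79b (0.22) were not called.

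Interferon-induced genes leaned downward below the threshold, with 29 members below 0 and 15 above (median -0.16). The mean log2 ratio of the list overlapped between the ages, at -0.08, 0.22 and 0.31 at 3 weeks and -0.17, 0.02 and -0.11 at 7 weeks. Of 44 tested, 15 (34.1%) were lower with no overlap, against 9.93% of all genes, but 1 was called lower, Gbp3 (-1.29, SE 0.35), and 1 higher, Ifitm1 (0.86, SE 0.22). Neither call was firm: Gbp3 was not called without any 1 array (adjusted p 0.0542 to 0.13), nor Ifitm1 without 3wk A, 3wk C, 7wk A or 7wk C (up to 0.107). With the covariate no gene of the list was called. The lower count was 4 with arrays centred on their medians and 6 after quantile normalization. Among the uncalled genes with no overlap were Ifit3 (-0.98), Rsad2 (-0.91), Bst2 (-0.81) and Irf7 (-0.76), all induced by type I interferon, and Iigp1 (-0.80) and Igtp (-0.64), induced mainly by interferon gamma.

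Imprinted genes, many of which act on growth before weaning, gave 5 lower calls and 1 higher among 18 (median -0.29). Plagl1, a zinc finger factor, measured 1.14, 1.48 and 1.36 at 3 weeks and 0.694, 0.584 and 0.760 at 7 weeks (-0.97, SE 0.15), and Igf2, a fetal growth factor, 1.46, 1.31 and 1.34 against 0.847, 0.816 and 0.631 (-0.85, SE 0.16). Igf2 changed sign, to 0.11 (adjusted p 0.942), when probe sets of low level were not left out, because its other probe sets then entered the mean. Dlk1, a marker of fat cell precursors, was at -1.24 (SE 0.29) and Nnat at -1.52 (SE 0.44). The lower count was 1 with the covariate and 3 without 3wk C, 7wk A or 7wk C, where Dlk1 was not called (adjusted p up to 0.0669), and Nnat was not called without 3wk A, B or C, 7wk A or 7wk C (up to 0.162).

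Several large families had shares of calls at or below those of all genes. The machinery of secretion in the endoplasmic reticulum and Golgi had 4 higher calls among 123 tested genes (3.25%, against 7.13%) and none lower (median 0.08), beside the higher calls of the milk genes it carries. Proteasome subunits gave 1 lower call among 40 (median 0.02) and none with the covariate, and replication fork proteins no call among 42 (median -0.04). Mitotic genes gave no call among 29 although 23 had a difference below 0, and they had a median of -0.31. Mki67, a marker of dividing cells, was at -1.29, Top2a at -0.31 and Pcna at -0.24, none of them called. Cholesterol synthesis gave no call among 18. Of 25 cathepsins and lysosomal genes 13 (52.0%) were higher with no overlap, against 20.0% of all genes, 4 were called, 1 of the list was with the covariate, and the median was 0.41. Ctsk, a collagen-cutting cathepsin, measured 0.611, 0.573 and 0.681 at 3 weeks and 1.37, 1.42 and 1.05 at 7 weeks (1.03, SE 0.14), and Ctsl, a general one, 0.635, 0.712 and 0.687 against 1.13, 1.18 and 1.01 (0.71, SE 0.11). Ctse differed by 1.53 (SE 0.20). Of 20 subunits of the acid pump of lysosomes 2 were called higher, the duct-cell form Atp6v1b1 (2.77, SE 0.34) and Atp6ap2 (0.62, SE 0.12), and 9 were higher with no overlap (45.0%); 1 was called with the covariate.

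**Figure D4:**
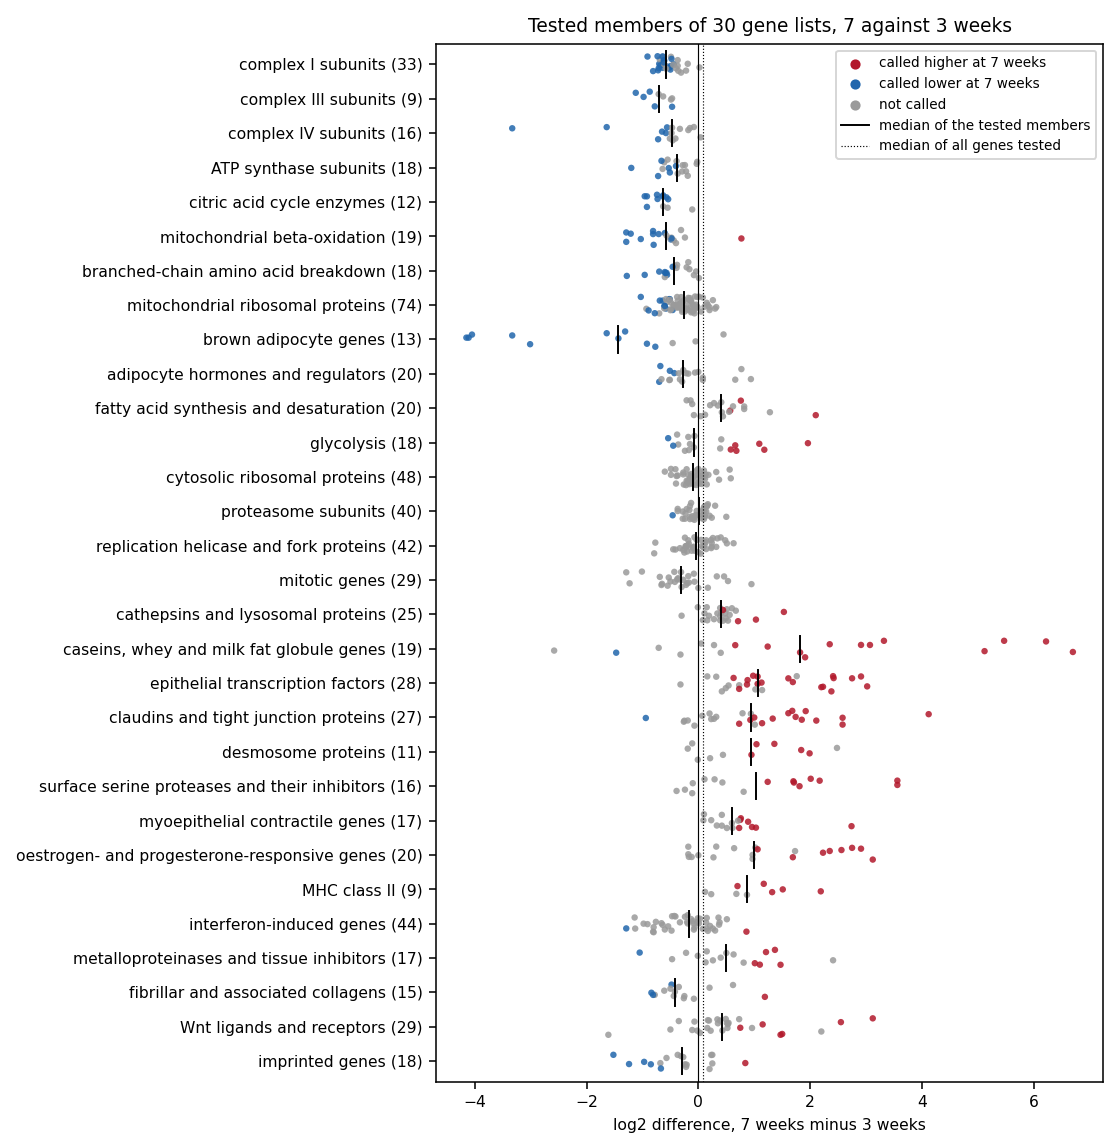
Log2 difference between 7 and 3 weeks for every tested member of 30 gene lists (points; number of members in brackets), coloured where called, with the list median as a bar and the median of all genes as a dotted line. Respiratory chain, citric acid cycle and beta-oxidation members lie mostly below 0, apart from Cpt1a at 0.77; most milk and epithelial members spread to the right, and ribosome, proteasome and replication members stay around 0.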

How the data were processed

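RNA from pooled CD1 mammary glands was hybridised to Affymetrix arrays, 14 in all. The authors deposited a linear ratio for each probe set; the values themselves show a scaling to the probe set's median over the 14 arrays (98.48% of rows have a median of 1 within 0.001). No label or file header names the software that made them. Ratios were turned into log2 with no offset. Probe sets under a recovered level of 200 steps on all arrays, or all but 1, were left out (4147 of 22626 non-control). The probe set fit used the remaining 18479, and gene values used the 16898 of these that name 1 gene. A gene's value is the mean over its probe sets. Gene names were checked against RefSeq (20351 of 20380 matched). Array number limits the precision.

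The fit was limma 3.58.1 (R 4.3.3) with age as a factor over 14 arrays, contrast 7 minus 3 weeks, empirical Bayes and Benjamini-Hochberg adjustment over all genes. All adjusted p-values in the text come from it. Tables were handled with Python 3.11.15 and pandas 2.3.3. On simulated arrays, log2 differences of 0.5, 1 and 2 were recovered in 4.5%, 40.3% and 75.8% of the changed probe sets. There were 3 false calls in the fit of 18479 probe sets. The changed probe sets numbered 67, 67 and 66, whereas 1580 were called in the data. The Benjamini-Hochberg cut-off loosens as more probe sets differ, so these shares may be too low for the data.

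Named genes are the 10 of smallest adjusted p in each direction with a moderate, consistent difference, and the 4 called genes of largest difference in each list. Others are given by value or named as chosen after their values were seen. The members and the 113 gene lists were chosen with earlier results of these data known. Same-letter arrays did not deviate together across ages (correlations 0.085, 0.005 and -0.003), so letters were not taken as pairs. Alternatives covered scaling, the level filter, an offset, the arrays in the fit, covariates and leaving out each array.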

Additional observations from a re-analysis of the deposited data

How the results depend on the processing

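Against 1080 called genes, 455 were called with only the 6 arrays of 3 and 7 weeks in the fit and 270 with the hybridisation-control level as a covariate, and at probe set level 611 and 352 against 1580. Leaving out 1 array gave 618 to 835 genes and 924 to 1205 probe sets. With the replicate letter as a block, 1034 genes and 1506 probe sets were called. Of the 1080 genes, 428 were also called with 6 arrays, 245 with the covariate, 992 with arrays centred on their medians and 873 after quantile normalization. Over single named genes and all alternatives, 3673 values kept direction and call, 1158 kept the direction and lost the call, and Igf2 alone reversed, to 0.11 with no filter on low levels, where further probe sets enter its mean. The hybridisation controls did not overlap between the ages, and the causes of the lost calls were not tested. With 3 pools an age, simulated differences of 0.5 were called in 4.5% of cases, with fewer changed probe sets than were called in the data. In the data 88 called genes had an absolute difference under 0.5 and 523 from 0.5 to 1.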

Other observations

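Of the 113 gene lists, 40 had a share of calls at or below that of all genes. Grouped by theme they were uneven: 97 of 334 mitochondrial genes were called lower (29.0%) and 86 of 292 epithelial genes higher (29.5%), while genes of proliferation and the nucleus gave 5 higher and 6 lower calls among 176. Leaving out 1 array gave 55 to 87 lower mitochondrial genes (58, 56 and 55 without 3wk B, 7wk B and 7wk C) and 56 to 69 higher epithelial genes (56 and 57 without 7wk A and 7wk C), and the hybridisation-control covariate 26 and 33. Several genes had probe sets that disagreed, and their means are to be read with that in mind: Prkcz had probe sets at -0.11 and 2.69, Runx1 at -0.99 and 2.93, and Slc25a5 at -0.81 and 0.15. Of the 449 called genes with at least 2 probe sets, 16 had probe sets of both signs.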
